A study of Mus musculus with 2 samples.

Results

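The 10 genes described here encode the proteins with which a macrophage takes up lipoproteins and fatty acids, and they were listed by symbol for their role and not by a threshold on their values. They are the lipase Lpl, its inhibitor Angptl4, the lipoprotein receptors Lrp1, Scarb1 and Vldlr, the scavenger receptors Cd36 and Olr1, and the fatty acid transport proteins Slc27a1, Slc27a3 and Slc27a4. All 10 symbols were found, once each, among the 22322 genes of the deposited table, and 8 of them reached 1 FPKM in at least 1 library. mRNA was sequenced from liver macrophages of FABP7 KO mice (1 library) and of WT mice (1 library). The knockout was made on the C57BL/6J background and genotyped on tail DNA, and the labels give C57BL/6 as the background of both groups. Both groups carried MC38 colon carcinoma cells, of which 500000 in 100 µl PBS were injected into the spleen, and the F4/80-selected macrophages were taken from the metastatic liver on day 10. Neither group was tumor-free, so every level below is that of a metastasis-bearing liver. Male mice of young adult age were used, but how many went into either library is not stated in the labels or methods. One field of the labels calls the KO sample a knockdown, whereas its title and the methods call it a knockout. Since each genotype has 1 library, the variation from mouse to mouse is unknown, no test was made and no p-value is given. The intervals below cover counting error only.

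Macrophages obtain lipid by several routes. Lipoprotein lipase, secreted and held at the cell surface, splits the triglycerides of chylomicrons and very low density lipoproteins (VLDL) and frees fatty acids. Endocytic receptors such as LRP1 and VLDLR take up whole particles or their remnants by endocytosis. CD36 and the fatty acid transport proteins pass fatty acids across the plasma membrane or trap them as acyl-CoA, after which binding proteins of the FABP family carry them inside the cell.

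In these libraries the uptake genes fell into an abundant and a sparse set in both genotypes. Lpl, Lrp1, Scarb1 and Cd36 made up 98.1% of the summed FPKM of the 10 genes in KO macrophages and 98.7% in WT macrophages. The sum itself was 1091 FPKM in the KO library and 1113 FPKM in the WT library. FPKM, the fragments of a gene per kilobase of its length and per size of the library, is a scale on which levels of different genes can be set side by side. None of the 8 measured uptake genes was at least 2-fold higher or lower in KO macrophages, on the scale of log2(FPKM + 1), against 2.21% of the 10770 measured genes that were higher and 2.95% that were lower. With so few genes these shares do not set the uptake genes apart from the rest. Of the 8, 6 had a ratio above 0 and 2 (Lpl and Cd36) below 0, and their median log2 ratio was 0.20. It was 0.081 over all 10 genes, and 0.0036 over all measured genes.

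Fabp7, the deleted gene, stood at 0.69 FPKM in the KO library and 354 FPKM in the WT library. No total counts were used, since the files hold FPKM alone, but the steps between low values put the depth at about 17950000 fragments for the KO and 18050000 for the WT library. The Kupffer cell markers Clec4f (4156 FPKM in KO, 3188 FPKM in WT) and Cd5l (6001 and 6696 FPKM in the same order) were among the highest values, and the summed level of 8 such markers was 14590 FPKM in the KO and 13320 FPKM in the WT library. Markers of other cells were present at far lower sums, and most of these sums were larger in the KO library. The 12 hepatocyte markers summed to 1166 FPKM in KO and 574.6 FPKM in WT, the 12 markers of liver sinusoidal endothelial cells to 780.3 and 546 FPKM, and the 10 stellate cell and fibroblast markers to 67.7 and 23.3 FPKM. A single gene made up most of each of these sums. For hepatocytes it was Trf (642 FPKM in KO, 306 FPKM in WT), and the next was Alb (305 and 144 FPKM). For endothelium it was Cdh5 (450 and 372 FPKM), and the next was Stab2 (118 and 79.9 FPKM). For stellate cells and fibroblasts it was Dcn (37.05 and 13.47 FPKM). Which cells the RNA of Trf, Cdh5 and Dcn came from was not tested. The 10 neutrophil markers summed to 111 FPKM in KO and 39.1 FPKM in WT. The 8 monocyte markers summed to 456 FPKM in KO and 948.5 FPKM in WT, but Plac8 alone made up most of both sums, which were 28.6 and 40.9 FPKM in the same order without it, and 4 of the 8 were higher and 4 lower in KO. Each of 10 proliferation genes was past 2-fold on the lower side in KO, with a median log2 ratio of -2.67. In bulk libraries such as these, fewer cells of a type and less RNA per cell cannot be told apart.

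**Figure D1:**
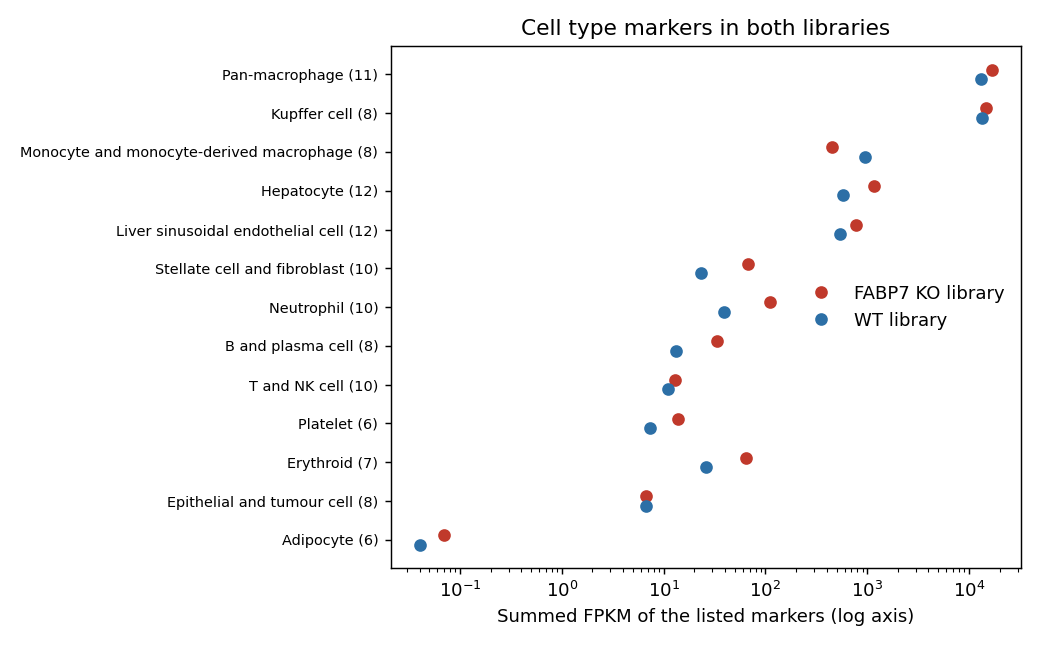
Summed FPKM (x, log axis) of each list of cell type markers (rows, number of listed genes in parentheses) in the FABP7 KO library (red) and the WT library (blue). The macrophage and Kupffer cell sums lie between 13050 and 16790 FPKM, and the hepatocyte, endothelial, stellate and neutrophil sums are larger in KO, while the monocyte sum, most of which is Plac8, is larger in WT.

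The lipase was the most abundant uptake gene. Lpl (ENSMUSG00000015568), the enzyme that releases fatty acids from circulating triglyceride, was at 521 FPKM in KO and 549.7 FPKM in WT macrophages. It ranked above 99.2% of the measured genes in KO and 99.1% in WT. The KO level was 0.948 times that of WT (95% counting interval 0.935 to 0.962), a log2 ratio of -0.08. Under other scalings of the KO library this log2 ratio was -0.04 and -0.03, outside that interval. About 38510 fragments in KO and 40829 in WT lay behind these values, so the interval is narrow, but it contains nothing of the difference between mice. Some 1.40% of the 50-base stretches of Lpl transcripts occur also in transcripts of other genes. The 6 listed adipocyte markers, of another cell type that makes much Lpl, summed to 0.07 FPKM in KO and 0.04 FPKM in WT, with Adipoq at 0 in both.

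Angptl4 (ENSMUSG00000002289), a secreted protein that inactivates lipoprotein lipase and responds to fatty acids and fasting, was at 2.93 FPKM in KO and 1.76 FPKM in WT macrophages. The KO level was 1.66 times the WT level (1.30 to 2.14), and the log2 ratio after adding 1 FPKM was 0.51. Within each library, Lpl was 178 times as abundant as Angptl4 in KO and 312 times in WT. Angptl4 is also made by hepatocytes and stellate cells, whose marker sums were larger in the KO library as given above, and their part in this ratio was not tested.

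Among the lipoprotein receptors, Lrp1 differed most in absolute level. Lrp1 (ENSMUSG00000040249), a large endocytic receptor for apoE-bearing remnants and many protease complexes, was at 242 FPKM in KO and 196 FPKM in WT macrophages. Its KO level was 1.23 times that of WT (1.22 to 1.25), with a log2 ratio of 0.30. Under other scalings of the KO library this log2 ratio was 0.34 and 0.35, outside that interval. Scarb1 (ENSMUSG00000037936), which encodes SR-BI and takes cholesteryl esters from high density lipoprotein without engulfing the particle, was at 181 FPKM in KO and 174 FPKM in WT, 1.04 times as high (1.01 to 1.07), a log2 ratio of 0.06 that was 0.11 when KO values were scaled by totals without hepatocyte, erythroid and mitochondrial genes. Both receptors lay above 96% of the measured genes in either library. Vldlr (ENSMUSG00000024924), the VLDL receptor of muscle, fat and inflamed macrophages, was below the floor with 0.66 FPKM in KO and 0.73 FPKM in WT. Its ratio of 0.904 had an interval of 0.674 to 1.20 that spans equality, so no difference was detectable at this depth. Lrp1 thus exceeded Vldlr by 367 times in KO and 269 times in WT.

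Cd36 had the lowest ratio of the 10 genes. Cd36 (ENSMUSG00000002944), the scavenger receptor that binds long-chain fatty acids and oxidised LDL, was at 126 FPKM in KO and 179 FPKM in WT macrophages. Its KO level was 0.703 times the WT level (0.683 to 0.724), a log2 ratio of -0.51, and 9.88% of the measured genes had a lower ratio. Under other scalings of the KO library the log2 ratio of Cd36 was -0.468 and -0.454, the latter outside that interval. Cd36 is also made by sinusoidal endothelial cells and platelets. All 12 endothelial markers had ratios above 0, with a median log2 ratio of 1.34, and Pf4, the 1 measured platelet marker of 6, was at 12.3 FPKM in KO and 6.95 FPKM in WT. The monocyte markers were mixed, with Plac8 at 427 FPKM in KO and 908 FPKM in WT. Of the 6 measured, 2 had ratios above 0 and 4 below. Their median log2 ratio was -0.515 over these 6 and 0.0067 over all 8. The part of these cell types in the Cd36 ratio was not tested. Olr1 (ENSMUSG00000030162), which encodes the oxidised LDL receptor LOX-1 of endothelium and activated macrophages, was near the limit of detection with 0.11 FPKM in KO and 0.08 FPKM in WT. Those values rest on about 7 and 5 fragments, and the ratio interval of 0.385 to 5.63 allows either direction.

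**Figure D2:**
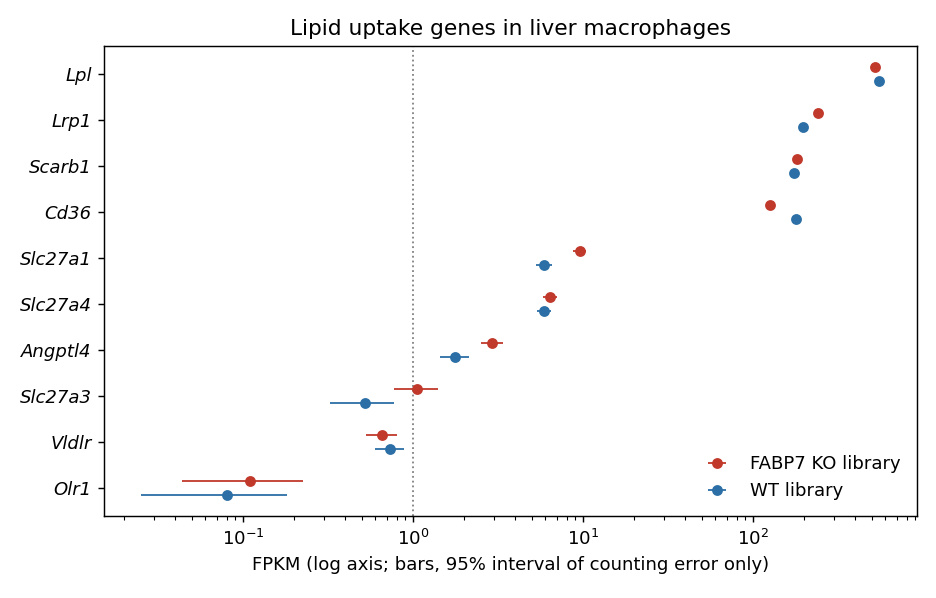
FPKM (x, log axis) of the 10 uptake genes (rows, by mean level) in the FABP7 KO library (red) and the WT library (blue), 1 library each, where bars are 95% intervals of counting error and the dotted line is the floor of 1 FPKM. Lpl, Lrp1, Scarb1 and Cd36 lie between 126 and 549.7 FPKM in both libraries, and the other 6 genes lie below 10 FPKM.

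The order of levels differed between the libraries at a few places. In KO macrophages it was Lpl, Lrp1, Scarb1, Cd36, Slc27a1, Slc27a4, Angptl4, Slc27a3, Vldlr and Olr1. Cd36 and Scarb1 were close in WT, where Cd36 was 1.03 times Scarb1 and their counting intervals overlapped. Cd36 was below Scarb1 in KO, at 0.695 times its level, with intervals apart. Likewise Slc27a1 and Slc27a4 could not be ordered in WT (ratio 0.995) but stood apart in KO (1.49). Slc27a3 and Vldlr, both near the floor, had overlapping intervals in KO and in WT. All other neighbours in the order were apart by counting error in both libraries.

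The 3 fatty acid transport proteins were sparse and each had a ratio above 0. Slc27a1 (ENSMUSG00000031808), a transporter of muscle, fat and macrophages with acyl-CoA synthetase activity, was at 9.56 FPKM in KO and 5.87 FPKM in WT macrophages. Its KO level was 1.63 times that of WT (1.42 to 1.87), and its log2 ratio of 0.62 was the highest of the 8 measured uptake genes on the scale of log2(FPKM + 1). On that scale it was the 1 uptake gene past a 1.5-fold size rule, which 8.02% of all measured genes passed as higher in KO. Slc27a4 (ENSMUSG00000059316), the related transporter best known from intestine and skin, was at 6.41 FPKM in KO and 5.90 FPKM in WT, with a ratio interval of 0.950 to 1.24 that spans equality. Slc27a3 (ENSMUSG00000027932), whose protein acts mainly as an acyl-CoA synthetase, was at 1.06 FPKM in KO and 0.52 FPKM in WT. Its KO level was 2.04 times the WT level, but with about 47 and 23 fragments the interval ran from 1.22 to 3.55. On the log2(FPKM + 1) scale this came to 0.44, and without the added 1 FPKM to 1.03, past the 2-fold rule, as for 5.52% of genes higher on that scale. Slc27a1 thus differed from Slc27a4 in the same pair of libraries, since their counting intervals did not overlap. The part of cells other than macrophages, most of whose marker sums were larger in KO, was not tested for the 3 transporters. About 1.43% of the 50-base stretches of Slc27a1 transcripts recur in other genes, against 0 for Slc27a3 and Slc27a4, so the 3 transporters do not share reads of that length with each other.

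**Figure D3:**
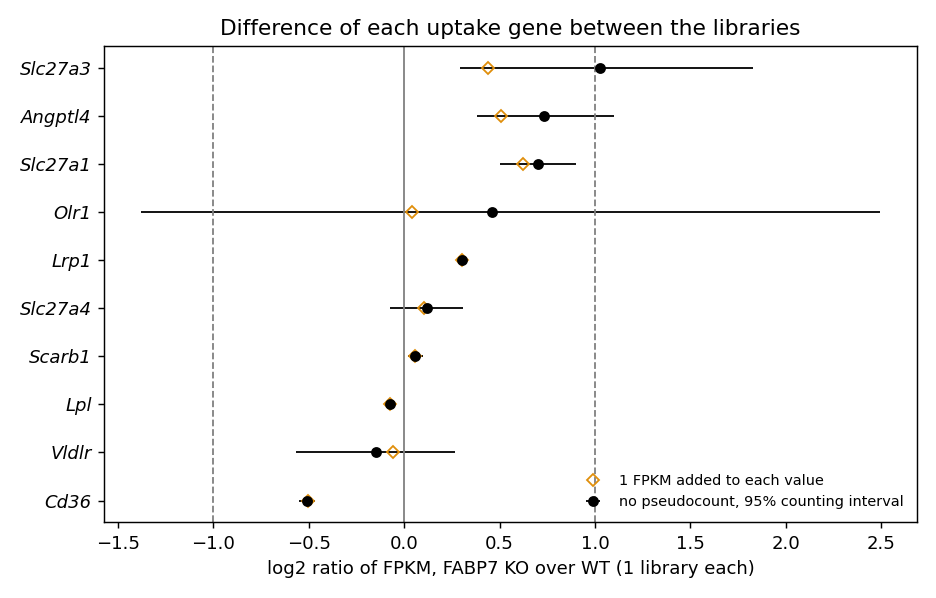
Ratio of FABP7 KO to WT levels (x, log2) for the 10 uptake genes (rows), without a pseudocount (black, with the 95% interval of counting error) and after adding 1 FPKM to each value (open diamonds), where dashed lines mark 2-fold. Cd36 has the lowest ratio at -0.51, Lpl and Scarb1 lie close to 0, and Slc27a3 reaches 1.03 only without the pseudocount.

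The RefSeq table of promoters (250 bases before to 50 bases after each start, GRCm38.p6) held 7 of the 10 uptake genes with 10 starts. Those of Cd36 and Lrp1 are shown because, of the 4 abundant uptake genes, only these are in the table, which has no start of Lpl or Scarb1. The Cd36 window is chr5:17835847-17836146 and the Lrp1 window chr10:127621099-127621398, both on the minus strand. Capitals mark, on either strand, the GC box GGGCGG, the CCAAT box CCAAT and the nuclear receptor half-site AGGTCA, none of which overlap each other here.
Cd36: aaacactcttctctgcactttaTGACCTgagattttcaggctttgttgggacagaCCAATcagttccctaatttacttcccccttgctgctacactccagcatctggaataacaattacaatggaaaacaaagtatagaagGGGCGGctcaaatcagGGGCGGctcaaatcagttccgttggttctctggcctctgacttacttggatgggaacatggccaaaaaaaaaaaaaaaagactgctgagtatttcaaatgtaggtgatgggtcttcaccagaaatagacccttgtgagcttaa
Lrp1: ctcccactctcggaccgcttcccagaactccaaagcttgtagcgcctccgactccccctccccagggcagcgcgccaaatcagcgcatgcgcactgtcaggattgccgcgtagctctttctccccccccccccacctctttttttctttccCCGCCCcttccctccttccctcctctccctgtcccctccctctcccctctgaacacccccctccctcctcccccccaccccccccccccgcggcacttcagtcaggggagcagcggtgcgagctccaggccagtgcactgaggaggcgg

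The windows differ in base composition, with 43.0% G and C in Cd36 and 67.7% in Lrp1, against a median of 52.7% over all promoters of the table. Cd36 holds 2 GC boxes inside a short direct repeat, 1 CCAAT box and 1 half-site, whereas Lrp1 holds 1 GC box on the other strand and none of the other letters. Over the 10 starts of uptake genes, 7 hold the GC box and 6 the CCAAT box, against 35.7% and 37.4% of all 32851 promoters. The half-site AGGTCA is found at Cd36 and Olr1, against 16.3% of all promoters, and the core ACGTG of hypoxia response elements at Slc27a1 and Slc27a3, against 19.6%. None of the 10 windows holds TATAAA, the sterol element TCACNCCAC or the full nuclear receptor repeats AGGTCANAGGTCA and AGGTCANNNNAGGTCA, which occur in 13.6%, 1.24%, 0.0396% and 0.0152% of promoters. A match of letters is a description of the window, and which start the macrophages used is not known from these data.

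In the 10 related lists, 82 of 109 reported genes were measured. Of these, 9 were at least 2-fold higher in KO and 1 (Fabp7) lower. That was 12.2% in all, and 11.1% without the deleted Fabp7. Among all measured genes it was 5.16%, with 2.21% higher and 2.95% lower. These counts and the list counts below are on the scale of log2(FPKM + 1). The part of cells other than macrophages, most of whose marker sums were larger in KO, in the 9 higher genes was not tested. Among the other genes of the LRP and sortilin families reported here, none of 8 measured passed 2-fold. Lrp5 and Lrp6, coreceptors of Wnt signaling, were at 62.6 and 26.4 FPKM in KO and 57.3 and 22.1 FPKM in WT. Sorl1, a sorting receptor of endosomes that also binds lipoproteins, was at 1.80 FPKM in KO and 0.99 FPKM in WT (log2 ratio 0.49). Among chaperones, adaptors and degraders of these receptors, no gene of 7 reported and measured passed 2-fold. Mylip, a ubiquitin ligase that sends VLDLR to lysosomes, was at 22.6 FPKM in KO and 11.6 FPKM in WT (0.90). Dab2, an endocytic adaptor, was at 135 FPKM in KO and 106 FPKM in WT (0.34), and Lrpap1, the chaperone that keeps new LRP1 free of ligands, at 51.2 and 53.4 FPKM in the same order (-0.06).

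Genes that mature, anchor or control lipoprotein lipase had a median log2 ratio of 0.55, and of 0.28 over all 17 listed, with 3 of 13 measured at least 2-fold higher and none lower. Gpihbp1, which carries lipoprotein lipase across capillary endothelium, was at 17.3 FPKM in KO and 5.48 FPKM in WT (3.16 times as high). Apoc3, an inhibitor of the lipase from hepatocytes, was at 10.3 FPKM in KO and 3.88 FPKM in WT (1.21), and Hspg2, the heparan sulfate proteoglycan perlecan, at 2.90 FPKM in KO and 0.78 FPKM in WT (1.13). Apoc1, another inhibitor and one that macrophages express, was far more abundant at 1304.5 FPKM in KO and 705 FPKM in WT (0.89). The other listed apolipoproteins, named after their values were seen, were Apoc2 (7.46 FPKM in KO, 4.24 FPKM in WT) and Apoa5 (4.64 and 2.84 FPKM). Of the 13 measured genes, 11 had ratios above 0 and 2 below. Sel1l, which brings the lipase out of the endoplasmic reticulum, was at 31.6 FPKM in KO and 31.1 FPKM in WT. Gpihbp1 is a gene of endothelium and Apoc3 one of hepatocytes, and the marker sums of both cell types were larger in KO, a part in these ratios that was not tested.

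Among the other lipases and transfer proteins, 1 of 7 measured genes passed 2-fold on the log2(FPKM + 1) scale, with a median of 0.77, and of 0.20 over all 9 listed. This was Lipc, the hepatic lipase, at 1.72 FPKM in KO and 0.26 FPKM in WT. Pltp, the phospholipid transfer protein, was at 662 FPKM in KO and 389 FPKM in WT (0.77), Pla2g7, which hydrolyses oxidised phospholipids of LDL, at 67.0 and 33.2 FPKM in the same order (0.99), and Lipa, the lysosomal acid lipase, at 359 and 313 FPKM (0.20). No other scavenger receptor of 8 measured passed 2-fold (median 0.28). The class A receptors for modified LDL had ratios below 0 like Cd36, with Marco at 714 FPKM in KO and 1377 FPKM in WT (-0.95) and Msr1 at 389 and 552 FPKM (-0.50). The other 6 of the list, among them Cd68, Stab2 and Cxcl16, had ratios above 0.

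**Figure D4:**
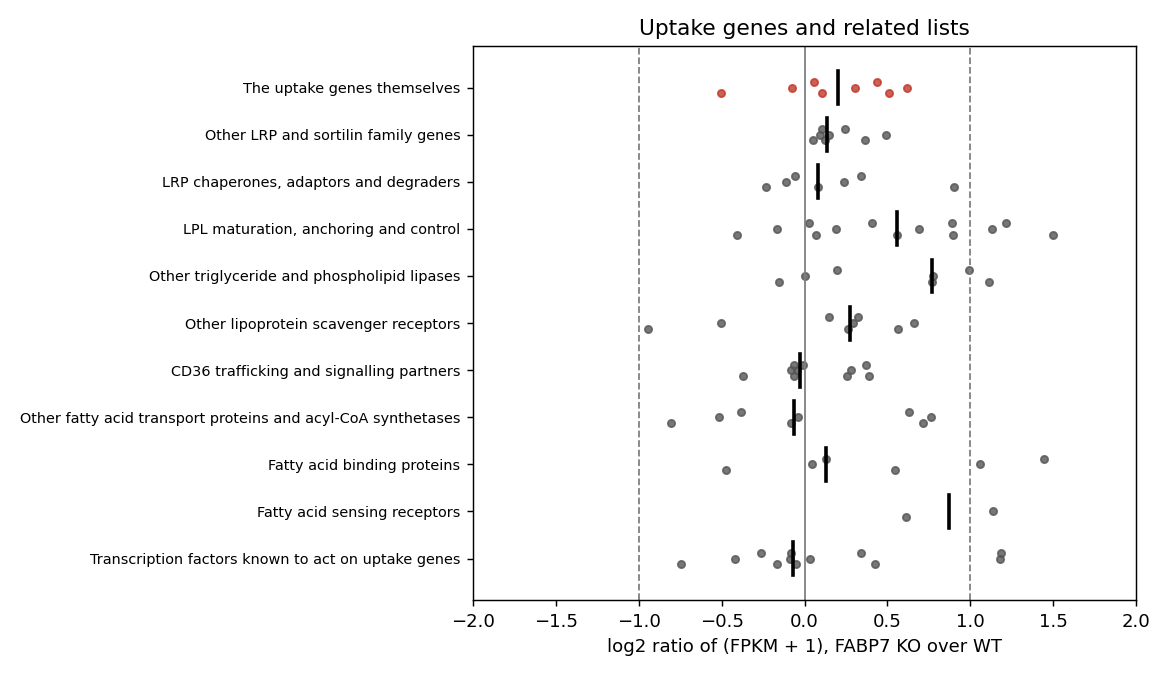
Ratio of FABP7 KO to WT levels (x, log2 of FPKM + 1) for each measured uptake gene (red) and for the measured genes reported here of 10 related lists (grey, rows), with the median of each list (black bar) and dashed lines at 2-fold. Fabp7, at -7.71, lies off the scale to the left, the uptake genes span -0.51 to 0.62, and the lipase control and other lipase lists have medians of 0.55 and 0.77.

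Of the partners of CD36 in trafficking and signaling, none of 10 measured passed 2-fold, with ratios on either side of 0 and a median of -0.03. The Src family kinases that CD36 activates were at 268 FPKM in KO and 269.8 FPKM in WT for Lyn and at 44.4 and 57.6 FPKM for Fyn. Of the caveolar genes, Cav2 was at 2.59 FPKM in KO and 1.78 FPKM in WT and Cavin1 at 1.47 and 0.89 FPKM. Cav1, named after its value was seen, was below the floor and lower in KO, at 0.60 FPKM in KO and 0.82 FPKM in WT. Of the remaining fatty acid transport and activation genes, none of 8 measured passed 2-fold on the log2(FPKM + 1) scale (median -0.06). Without the added 1 FPKM, Slc27a2, Slc27a5, Slc27a6 and Acsl3 did, at 2.91, 2.48, 2.18 and 0.497 times the WT level. On that scale 1059 of 10760 genes passed 2-fold in either direction. Genes of other related lists also passed only there, among them Pla2g7 at 2.02 times the WT level. The transporters Slc27a2 (1.66 FPKM in KO, 0.57 FPKM in WT), Slc27a5 (1.44 and 0.58 FPKM, named after its value was seen) and Slc27a6 (2.57 and 1.18 FPKM) had ratios above 0. The acyl-CoA synthetases Acsl3 (2.83 FPKM in KO, 5.69 FPKM in WT) and Acsl5 (67.1 and 87.7 FPKM) and the membrane fatty acid binding protein Got2 (25.0 and 36.1 FPKM) had ratios below 0. Slc27a2 and Slc27a5 are genes of hepatocytes, whose markers had a median log2 ratio of 0.85, and their part was not tested.

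Of the intracellular fatty acid binding proteins, 2 of 7 measured were at least 2-fold higher, namely Fabp1 of hepatocytes at 24.5 FPKM in KO and 8.38 FPKM in WT and Fabp4 of adipocytes, macrophages and endothelium at 9.68 and 4.13 FPKM, and 1, Fabp7, was lower. The part of hepatocytes and endothelial cells, whose markers had medians of 0.85 and 1.34, in the ratios of Fabp1, Fabp4 and, below, Epas1 was not tested. Dbi, which binds acyl-CoA, was at 53.7 FPKM in KO and 75.0 FPKM in WT. The nicotinic acid and ketone body receptor Hcar2 was at 12.8 FPKM in KO and 5.29 FPKM in WT (1.13), and the fatty acid receptors Ffar2, Ffar3 and Ffar4, named after their values were seen, were listed at 0 in both libraries. Among transcription factors known to act on uptake genes, 2 of 12 measured were at least 2-fold higher (median -0.07). They were Nfe2l2, which encodes the oxidative stress factor NRF2, at 134 FPKM in KO and 58.5 FPKM in WT, and Epas1, which encodes HIF-2α, at 7.22 and 2.62 FPKM. The lipid-sensing factors Nr1h3 (213 FPKM in KO, 239 FPKM in WT) and Rxra (144 and 152 FPKM), both of which are known to induce lipid genes in macrophages, had ratios of -0.17 and -0.08. Ppargc1b, a coactivator of nuclear receptors, was at 2.50 FPKM in KO and 4.86 FPKM in WT (-0.74).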

How the data were processed

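Liver macrophage mRNA was measured in 1 FABP7 KO and 1 WT library. The authors deposited FPKM values, that is, fragments scaled by gene length and library size, and no counts. Bowtie2 2.2.8 and TopHat2 2.1.1 are named, without a role, in the submitters' processing notes. Genome build, counting tool and filters: not given in the sources used here. All 3 deposited tables held the same values. Symbols came from GENCODE M21 by Ensembl ID for 22267 genes, and of rows with 1 symbol the most abundant was kept.

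Ratios of KO over WT were taken on the log2 scale after adding 1 FPKM, which understates the change of low genes. Genes below 1 FPKM in both libraries were left out. The size rule was 2-fold. Depth came from the steps between FPKM values below 0.4 in single-transcript genes of 500 to 1500 bases, of which 89.7% (KO) and 90.9% (WT) were within 0.15 fragments of a whole number (30.0% by chance). Fragments per gene assume the length of the longest GENCODE transcript, for which 52.9% and 57.1% of low values of multi-transcript genes were near whole, so these numbers are approximate. The intervals are 95% exact ones, binomial for a ratio and Poisson for a level, for counting error only. Reads are not independent molecules. The size rule was tested on simulated data with counting error only. These held no variation between mice and no changes close to 2-fold, so the rule is untested for both.

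The uptake genes and lists were chosen with earlier results of these data known. Some genes of the related lists are not reported here and are left out of those lists' counts. All 10 uptake genes are named, and in each related list up to 3 genes with the highest mean and up to 3 with the largest ratio, except where a sentence says otherwise. In each marker list up to 2 genes were named by highest mean, and others were named after their values were seen. Alternatives were other pseudocounts, floors, scalings and a size rule of 1.5-fold. Python 3.11.15, NumPy 2.4.6, pandas 2.3.3, SciPy 1.17.1 and Matplotlib 3.10.9 were used.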

Additional observations from a re-analysis of the deposited data

How the results depend on the processing

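Over 48 values of single uptake genes under other pseudocounts, floors and scalings, none changed sign and 1 passed the 2-fold rule, that of Slc27a3 without a pseudocount. The number of uptake genes past the rule was thus 1 without a pseudocount and 1 (Slc27a1) with a rule of 1.5-fold, and 0 under the other alternatives run. Over all genes the number was 1006 with a pseudocount of 0.1, 1059 without one and 1658 with the 1.5-fold rule, each larger by construction. Scaling KO values by the median KO to WT ratio of well expressed genes (0.974, from 10 FPKM on) or by sums that leave out hepatocyte, erythroid and mitochondrial genes (0.965) raised ratios by 0.037 and 0.051. No paired analysis was possible because each genotype had 1 library. Depth limits Olr1, Vldlr and Slc27a3, and a replicate error is lacking for all genes.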
